A study of Mus musculus with 29 samples.

Results

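Conventional CD4+ T cells kept in TGF-beta and lactic acid were compared at 72 h and 24 h of activation, to find which transcripts rose and which fell between these times. The comparison rests on 6 of the 29 libraries of the study, the 3 labelled 72h Tcon TLA and the 3 labelled 24h Tcon TLA, which were chosen by those labels alone. All 29 libraries came from spleen CD4+ cells of C57BL/6-Foxp3tm1Flv/J mice, in which a red fluorescent protein (RFP) reports the regulatory T cell factor Foxp3. The cells were activated with antibodies to CD3 (1.25 ug/ml) and CD28 (2.5 ug/ml) in medium that held 50 IU/ml interleukin 2 and only 0.5 mM glucose. Both groups compared here also received 3 ng/ml TGF-beta and 10 mM lactic acid, and RFP-negative cells (Tcon) were sorted from them. At 72 h the RFP-positive cells of the same medium were sorted as a separate Treg group, so the 72 h Tcon are what remained after that gate. At both times replicate 1 was male and replicates 2 and 3 were female. The labels used here give no ages. Tcon with TGF-beta alone (T) and with lactic acid alone (SLA), each with 3 libraries per time, served to ask whether a change over time differed without the other agent. The sources used here do not state whether both times belong to 1 experiment or whether replicates came from separate animals. Time and experiment therefore cannot be told apart, and the p-values measure only the spread between these libraries, which may in part be technical.

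An activated CD4+ T cell first grows, making ribosomes and nutrient transporters, and then divides, and its metabolism turns towards glycolysis with lactate as the end product. Monocarboxylate transporters carry lactate together with a proton across the membrane. TGF-beta acts through Smad transcription factors, and in activated CD4+ T cells it induces Foxp3 and the integrin subunit encoded by Itgae. It supports regulatory or Th17 fates depending on the other cytokines present.

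The libraries held 9754511 to 13049911 reads in genes, with 0.859% to 1.69% of them in mitochondrial transcripts. This share is of counted reads, and 6 of 13 listed mitochondrial genes of the respiratory chain had no count in any of the 6 libraries. Replicates correlated at 0.986 to 0.992 within 24 h and at 0.980 to 0.990 within 72 h across genes on the log2 scale, against 0.915 to 0.934 between times. The first principal component of the 6 libraries held 79.4% of the variance and separated the times. On the second, with 8.14%, replicate 1 of 72 h lay at 40.9 and replicates 2 and 3 of 72 h at -21.9 and -22.5. That library stood apart, and results that it decides are given with and without it. T cell identity genes were plentiful at both times: Cd4 was at 492 and 610.5 and the kinase gene Lck at 704 and 729 CPM (CPM are counts relative to the scaled library total, given for 24 h first). Of the 16 identity genes 3 rose and 9 fell, against 24.4% and 23.0% of all genes tested. Among the falls, Cd5 went from 568 to 229 CPM and Trbc2 from 491 to 257 CPM. The B cell markers summed to 138 to 155 CPM at 24 h and 187 to 194 CPM at 72 h, nearly all of it Ighm. Cr2 and Fcer2a were at 0 in all 6 libraries. The myeloid markers summed to 5.02 to 7.31 CPM and 14.7 to 20.03 CPM, with 6 of 13 at 0 throughout, among them S100a8 and Cd14. Erythroid and platelet markers summed to at most 5.55 CPM. The stromal and endothelial markers summed to 32.4 to 68.3 CPM and 28.4 to 34.6 CPM, nearly all of it Pecam1, which leukocytes also express.

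In all, 3503 of 14375 genes tested rose from 24 to 72 h and 3308 fell (edgeR quasi-likelihood test, Benjamini-Hochberg adjusted p under 0.05, called below), which is 24.4% and 23.0% of them. The change was at least 2-fold for 1957 called rises (13.6% of the genes) and 950 called falls (6.61%), and at least 8-fold for 657 rises and 80 falls. The median log2 fold change of all genes was -0.02. The 3 libraries of one time lay wholly above those of the other for 57.5% of genes. These are bulk libraries, so fewer cells of a kind and less RNA per cell cannot be told apart. Without replicate 1 of 72 h 3050 genes rose and 2711 fell. In what follows, fold changes are on the log2 scale, 72 h over 24 h, with the SE of the fit after ±, and levels of single libraries are in the order of replicates 1, 2 and 3, 24 h first. Gene lists are counted over their measured members, those that passed the filter on low counts, 1000 of 1073 list entries. Their counts are to be read against the 24.4% of all genes that rose and the 23.0% that fell.

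The 12 genes with the largest rises were close to silent at 24 h. Smtnl2, a smoothelin-like gene, had no count in any 24 h library and stood at 50.9, 25.2 and 24.5 CPM at 72 h, at least 419.7-fold higher against 3 counts over the group. Emilin2, which encodes an extracellular matrix glycoprotein, also had no count at 24 h and reached 20.4, 9.04 and 8.08 CPM, at least 157-fold higher on the same floor. The metallothionein genes, whose small proteins bind zinc, moved together. Mt1 went from 0.172, 0.0797 and 0.157 CPM to 112, 58.7 and 31.5 CPM, and Mt2 from 0, 0 and 0.0786 CPM to 80.2, 35.3 and 16.1 CPM. Replicate 1 of 72 h was the highest for both. Their ratios from all counts of a group were 500.2-fold (95% interval 214 to 1542) and 1637-fold (95% interval 293 to 64709.8). Such intervals cover counting error only. The fitted log2 change of Mt2 was 10.20 ± 1.06, but 9.42 without replicate 1 of 72 h and 12.06 without replicate 3 of 24 h, which held its single 24 h count.

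The other named rises covered lipoprotein uptake, glycogen use, nitric oxide, a cytokine and the cytoskeleton. Vldlr, the receptor for very-low-density lipoprotein, rose from 2 counts in all to 102, 42.7 and 35.4 CPM, 1128-fold (95% interval 312 to 9323). Pygl, a glycogen phosphorylase, reached 71.9, 32.0 and 22.8 CPM from 2 counts, 792-fold (95% interval 219 to 6544). Nos2, the inducible nitric oxide synthase, reached 20.6, 7.39 and 5.96 CPM from 1 count, 428-fold (95% interval 76.3 to 16936). Replicate 1 of 72 h was the highest library for all 3, as for Smtnl2 and Emilin2. The fitted log2 changes of Vldlr, Pygl and Nos2 were 9.86 ± 0.88, 9.36 ± 0.90 and 8.25 ± 1.19, and without that library 9.24, 8.73 and 7.48. Il24, a cytokine of the interleukin 10 family, was even across the 72 h libraries at 28.6, 30.3 and 24.5 CPM, as was the actin regulator Enah at 22.7, 26.2 and 29.7 CPM. The kinase gene Dapk2, the mucin gene Muc2 and 1500009L16Rik complete the 12, with 72 h means of 20.8, 23.7 and 10.2 CPM from 3, 4 and 2 counts at 24 h. All 12 had an adjusted p of 7.7e-06 or less (edgeR). A call and no overlap between the 24 h and 72 h libraries were conditions for naming them. With so few 24 h counts some fitted log2 changes hung on 1 library. Without replicate 1 of 24 h those of Nos2 and Muc2 were 10.12 and 8.89 in place of 8.25 and 7.64. Without replicate 2 those of Enah and Il24 were 8.15 and 11.40 in place of 7.25 and 7.87, and without replicate 3 that of Pygl was 12.01.

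**Figure D1:**
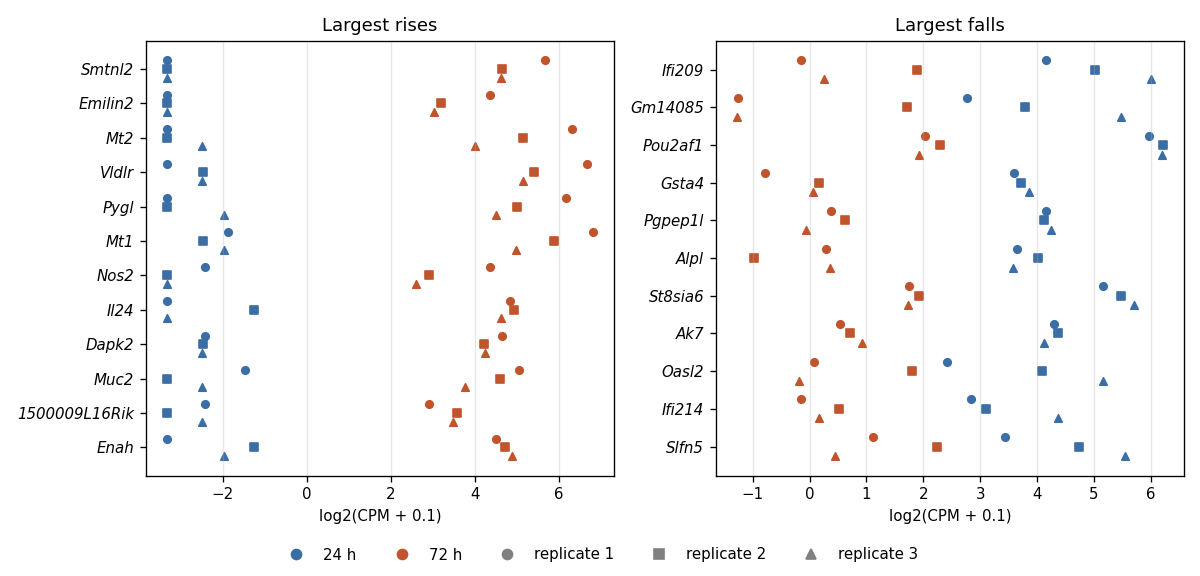
Level of the 12 genes with the largest rise (left) and 11 of the 12 with the largest fall (right) in each library, as log2(CPM + 0.1), blue for 24 h and red for 72 h, with a symbol per replicate. The leftmost points of the left panel are libraries with no count. No gene shown has overlapping times, which was a condition for naming it.

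The largest falls included 4 genes known to be induced by interferon. Ifi209 and Ifi214, of the family of interferon-inducible HIN genes, fell by 4.43 ± 0.61 and 3.52 ± 0.49 on the log2 scale (SE). Ifi209 was uneven at 24 h, at 17.7, 32.1 and 63.8 CPM, and low at 72 h, at 0.798, 3.59 and 1.10 CPM. Oasl2 and Slfn5, also induced by interferon, fell by 3.55 ± 0.71 and 3.44 ± 0.52, from equally uneven starts of 5.25, 16.8 and 35.5 CPM and 10.7, 26.5 and 46.6 CPM. Replicate 3 was the highest and replicate 1 the lowest 24 h library in all 4. Without replicate 3 of 24 h the falls of Ifi209, Ifi214, Oasl2 and Slfn5 were 3.83, 2.89, 2.75 and 2.85 on the log2 scale. Without replicate 2 of 72 h those of Ifi209, Oasl2 and Slfn5 were 5.30, 4.45 and 4.06. By contrast Pou2af1, a coactivator of octamer-binding factors, fell from a narrow range, 62.6, 73.6 and 73.3 CPM, to 3.99, 4.83 and 3.69 CPM. The log2 change of Pou2af1 was -4.07 ± 0.55 (edgeR adjusted p = 1.73e-06). The other named falls were the sialyltransferase gene St8sia6 (43.9 to 3.40 CPM), the alkaline phosphatase gene Alpl (13.5 to 0.902 CPM), the glutathione transferase gene Gsta4 (13.1 to 0.816 CPM), Ak7, an adenylate kinase (19.1 to 1.57 CPM), Pgpep1l (18.0 to 1.17 CPM) and Gm14085 (21.6 to 1.27 CPM). The log2 fall of Gm14085, 4.19 ± 0.87, was 3.11 without replicate 3 of 24 h and 6.05 without replicate 2 of 72 h.

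Genes of cell division formed the most uniform group. Of 40 measured genes of G2 and M phase 37 rose, all at least 2-fold, against 24.4% of all genes, with a median log2 fold change of 4.06. Their summed level was 777, 644 and 541 CPM at 24 h and 5793, 7042 and 8162 CPM at 72 h, lowest in replicate 1 of 72 h. The proliferation marker Mki67 stood at 35.5, 23.3 and 14.1 CPM at 24 h and at 892, 1211 and 1171 CPM at 72 h (5.49 ± 0.29, adjusted p = 4.82e-13, edgeR). Ccnb2, a cyclin of entry into mitosis, went from 1.04 ± 0.223 to 111 ± 33.4 CPM (SD, n = 3 each), a log2 fold change of 6.73 ± 0.47. Ube2c, the ubiquitin-conjugating enzyme of the anaphase-promoting complex, and Hmmr, a protein of the mitotic spindle, rose by 6.45 ± 0.49 and 6.41 ± 0.33. Nusap1, which bundles spindle microtubules, rose by 5.83 ± 0.27. A single member fell: Pttg1, which encodes securin, the guard of sister chromatids, went from 17.9, 18.6 and 19.02 CPM to 9.50, 11.1 and 11.9 CPM (adjusted p = 8.76e-05, edgeR; named after its values were seen).

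Promoters of the 3 G2 and M phase genes with the largest rises are shown because the group moved together and because cell cycle promoters are known to hold the CHR element (TTTGAA or TTCGAA) and CCAAT boxes. Each run is the 250 bases before the gene start in RefSeq (build GRCm38.p6), 5′ to 3′ on the strand of the gene, with matches to either motif on either strand in capitals. The windows are chr9:70421555-70421804 on the minus strand, chr2:164769679-164769928 on the plus strand and chr11:40733438-40733687 on the minus strand, in the order printed.
Ccnb2: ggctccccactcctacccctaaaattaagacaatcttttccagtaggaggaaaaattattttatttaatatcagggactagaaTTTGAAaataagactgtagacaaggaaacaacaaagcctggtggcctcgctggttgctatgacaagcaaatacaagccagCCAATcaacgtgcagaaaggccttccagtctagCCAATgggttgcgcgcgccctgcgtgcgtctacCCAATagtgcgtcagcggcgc
Ube2c: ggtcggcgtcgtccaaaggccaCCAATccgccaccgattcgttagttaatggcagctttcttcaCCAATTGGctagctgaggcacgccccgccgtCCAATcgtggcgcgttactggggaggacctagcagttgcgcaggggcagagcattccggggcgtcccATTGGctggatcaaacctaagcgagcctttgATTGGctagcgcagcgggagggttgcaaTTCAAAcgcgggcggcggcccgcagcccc
Hmmr: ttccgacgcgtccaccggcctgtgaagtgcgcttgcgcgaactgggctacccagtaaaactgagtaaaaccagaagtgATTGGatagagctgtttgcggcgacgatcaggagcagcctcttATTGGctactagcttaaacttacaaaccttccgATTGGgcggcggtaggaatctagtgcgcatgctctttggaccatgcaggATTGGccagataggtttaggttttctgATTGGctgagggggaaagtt
Ccnb2 held 3 CCAAT boxes and 1 CHR, Ube2c 6 CCAAT boxes, of which a pair overlaps on opposite strands, and 1 CHR, and Hmmr 5 CCAAT boxes and no CHR in this window. Over the list, 29 of 37 promoters of the 34 genes matched in RefSeq held a CCAAT box (78.4%), against 35.4% of promoters of all genes tested, and 15 a CHR (40.5% against 12.5%). CCAAT boxes were also frequent in the 2 other lists searched for them, in 16 of 20 promoters of sterol genes (80.0%) and 27 of 45 of S phase genes (60.0%). A CHR lay in 9 of the S phase promoters (20%). A match is a description of the letters and not a binding site.

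S phase genes moved less and less evenly. Of 45 measured genes of DNA replication 29 rose and 1 fell (median 0.72), and their sum was 5386 to 6990.4 CPM at 24 h and 7229 to 9954 CPM at 72 h. The largest rises were in enzymes and regulators of nucleotide supply and of entry into S phase. Tk1, thymidine kinase, stood at 11.6, 7.89 and 4.48 CPM and then 84.9, 102 and 107 CPM (3.62 ± 0.23), and Rrm2, a ribonucleotide reductase subunit, rose by 3.24 ± 0.30. Ccne2, a cyclin of S phase entry, and E2f2 rose by 3.15 ± 0.38 and 3.06 ± 0.25. Of the replicative helicase, Cdc45 and Gins3 rose by 1.62 ± 0.18 and 1.10 ± 0.13. The related subunits Gins1, Gins2 and Gins4 of that helicase were not called (0.41 ± 0.19, 0.22 ± 0.18 and -0.06 ± 0.11). Of its Mcm subunits, Mcm2 was at 469, 447 and 404 CPM and then 276, 415 and 449 CPM, and Mcm3 at means of 497 and 447 CPM (edgeR adjusted p = 0.441 and 0.531). The single fall was that of Mcm6, -0.40 ± 0.14 (adjusted p = 0.0193, edgeR), which was lost without replicate 1 or 2 of 24 h or replicate 1 of 72 h (adjusted p = 0.067, 0.0534 and 0.142). All these helicase genes were chosen after their values were seen. Of the E2F motifs TTTCCCGC, TTTGGCGC and TTTCGCGC, at least 1 lay in 22.2% of the 45 promoters of this list, 2.7% of those of G2 and M phase and 2.95% of those of all genes tested.

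Among 21 G1 cyclins, E2F factors and inhibitors of cyclin-dependent kinases 14 rose and 1 fell (median 1.16). E2f8 and E2f7, repressors that act late in the cycle, rose by 4.76 ± 0.28 and 3.89 ± 0.39. Of the inhibitors, Cdkn2c, which blocks Cdk4 and Cdk6, rose by 3.14 ± 0.25 and Cdkn2d by 2.25 ± 0.15. Cdkn1a, the p53 target p21, went from 22.9, 25.5 and 24.9 CPM to 295, 151 and 158 CPM (3.04 ± 0.37). Cdkn1b (0.50 ± 0.26), Cdkn1c (-0.48 ± 0.66) and Cdkn2b, with 3 and 2 counts in all, were not called. These and Cdkn2d were added after their values were seen. Of 20 p53 targets measured, 6 rose and 3 fell, against 24.4% and 23.0% of all genes, with a median of -0.10. With total counts 5 fell, and with the replicate number as a block 6. Besides Cdkn1a the leaders were Gtse1 (2.52), Sesn2 (2.50) and Plk2 (2.16).

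Most genes that build ribosomes fell, while few genes that encode ribosomal proteins passed the test. Of 41 genes of the Myc and ribosome biogenesis list 31 fell, against 23.0% of all genes, and 2 rose, with a median of -0.83. The sum fell from 14088, 14168 and 12949 CPM to 7162, 8003 and 9014 CPM, with no overlap. Polr1b, a subunit of RNA polymerase I, went from 219, 217 and 208 CPM to 43.1, 71.4 and 80.2 CPM (-1.73 ± 0.36), and the ribosome assembly factors Utp20 and Heatr1 fell by 1.64 ± 0.20 and 1.36 ± 0.21. The 2 rises were not in ribosome factors: Mxi1, an antagonist of Myc, rose by 2.26 ± 0.23 and Mycn, another Myc gene, from 1 count to 17, 17.9-fold (95% interval 2.81 to 749). Myc itself stood at 490.4, 480.2 and 466 CPM and then 254, 321 and 354 CPM, with no overlap, but missed the threshold (-0.63 ± 0.27, adjusted p = 0.0562, edgeR), which it passed when only the 6 libraries were fitted (adjusted p = 0.00386). Of 42 cytosolic ribosomal protein genes 4 rose and 2 fell, by less than 2-fold each, with a median of 0.042. Rpl28 rose by 0.34 ± 0.08 and Rpl35 fell by 0.41 ± 0.09. The number of ribosomal protein genes that rose was 2 without replicate 2 of 24 h and 1 without replicate 3 of 24 h or replicate 1 of 72 h, and 7 with RLE scaling. With total counts 1 rose and 4 fell, so the balance of directions depends on the scaling. The E-box CACGTG, known to be bound by Myc, lay in 3 of 40 promoters of the Myc and ribosome biogenesis list (7.5%) and in 8.27% of those of all genes tested.

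Heat shock chaperones fell in the same direction as ribosome biogenesis: 9 of 15 measured members fell and none rose (edgeR, also at an unadjusted p under 0.05, and DESeq2), with a median of -0.53. Hsph1, a nucleotide exchange factor for Hsp70 chaperones, fell by 1.70 ± 0.34, and replicate 1 was the lowest 72 h library, at 86.6, 146 and 171 CPM against 412, 453 and 451 CPM at 24 h. Hspd1 and Hspe1, the mitochondrial chaperonin pair, fell by 1.23 ± 0.16 and 1.13 ± 0.13, and Chordc1, a cochaperone, by 0.85 ± 0.11.

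Most genes of glycolysis and of the hypoxia response rose. Of 22 glycolytic genes and glucose transporters 18 rose, all at least 2-fold, and 2 fell (median 1.47). Together they made up 5678 to 6332 CPM at 24 h and 17432 to 22286 CPM at 72 h. The glucose transporter genes were among the largest rises, with Slc2a3 at 19.98, 18.9 and 16.8 CPM and then 1193, 540.0 and 368 CPM (5.24 ± 0.53) and Slc2a1 from 57.6 ± 3.60 to 543 ± 97.9 CPM (SD, n = 3 each; 3.24 ± 0.14). The first enzyme, hexokinase, followed with Hk2 from 76.7, 74.5 and 63.0 CPM to 367, 282 and 278 CPM (2.11 ± 0.15), then the aldolase Aldoc (5.003 ± 0.51) and the isomerase Tpi1 (2.17 ± 0.15). Of 20 hypoxia response genes 17 rose and 1 fell (median 2.54). P4ha2, a collagen prolyl hydroxylase, went from 0.517, 0.478 and 0.943 CPM to 130.3, 57.1 and 44.8 CPM (6.87 ± 0.65). Ndrg1, Bnip3, which promotes mitophagy, and Vegfa, the angiogenic factor, rose by 4.66 ± 0.43, 4.56 ± 0.20 and 4.29 ± 0.22. Hif1a, the regulator of this response, lay at 328, 358 and 325 CPM and 378, 365 and 400.2 CPM (0.18 ± 0.12, adjusted p = 0.238, edgeR; added after its values were seen), and Epas1, which encodes another such factor, fell by 1.20 ± 0.24. Replicate 1 of 72 h had the highest hypoxia sum, 6609 CPM, against 4433 and 4406 CPM, and all 24 h libraries were at or under 1118 CPM. Without this library Slc2a3 and P4ha2 rose by 4.61 and 6.27. Without it the median was 2.33 and 17 members still rose.

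Among genes of lactate, pyruvate and acid handling 9 of 27 measured members rose and 6 fell (median 0.10), against 24.4% and 23.0% of all genes. Slc16a3, the monocarboxylate transporter of glycolytic cells, was at 19.3, 16.4 and 14.5 CPM at 24 h and 489, 373 and 390.3 CPM at 72 h, a log2 fold change of 4.64 ± 0.25 (adjusted p = 1.03e-12, edgeR). Slc16a1, the more widely expressed transporter, stood at 196, 199 and 178 CPM and 199, 186 and 226 CPM, with overlapping times (0.10 ± 0.11, adjusted p = 0.516, edgeR). Ldha, the lactate dehydrogenase subunit, rose from 1179 ± 134 to 2813 ± 103 CPM (SD, n = 3 each; 1.25 ± 0.17). Of the kinases that switch off pyruvate dehydrogenase, Pdk1 rose by 1.63 ± 0.11 and Pdk2 fell by 3.37 ± 0.41, from 13.2, 16.7 and 18.1 CPM to 1.44, 1.34 and 1.81 CPM. Car2, a carbonic anhydrase, rose by 3.75 ± 0.32.

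**Figure D2:**
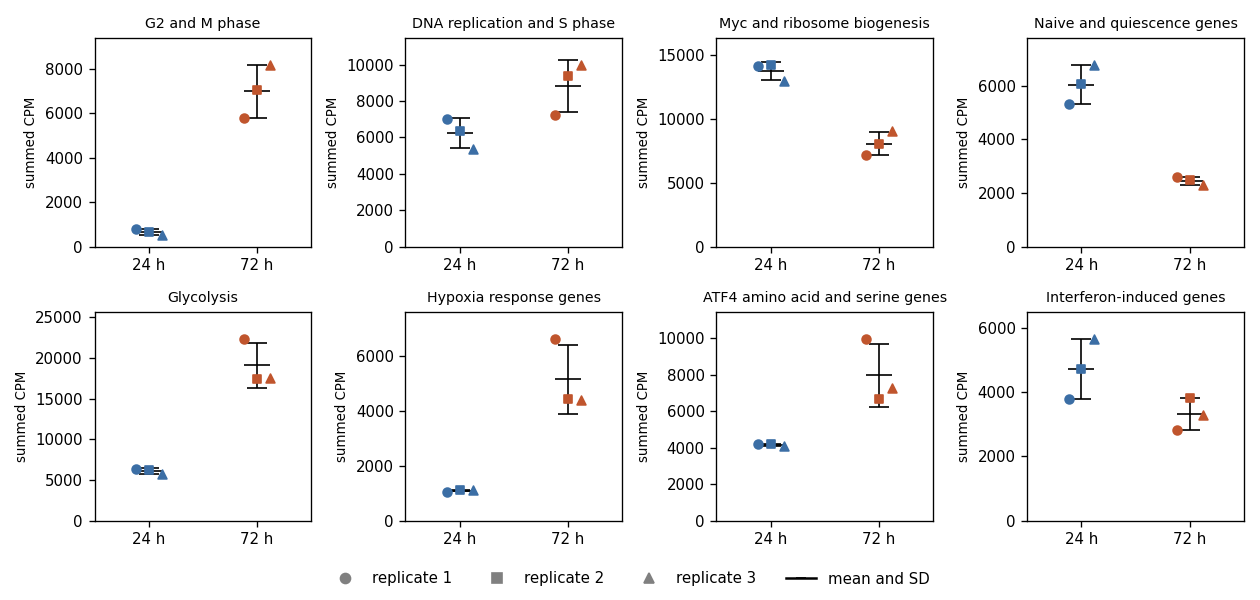
Summed CPM of 8 gene lists in each library, blue for 24 h and red for 72 h, with a symbol per replicate and the mean and SD of 3 libraries in black. Replicate 1 is the lowest 72 h library for both cell cycle lists and the highest for glycolysis, hypoxia and ATF4 genes. The axes start at 0.

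Amino acid response genes under the factor ATF4 rose nearly throughout. Of 34 members 30 rose, 22 of them at least 2-fold (13.6% of all genes), and 2 fell, or 1 without any library other than replicate 3 of 72 h (median 1.61). Besides Vldlr, the leaders were Nupr1, a small stress-induced chromatin protein, and Stc2, a secreted stanniocalcin. Nupr1 went from 0.345, 0.319 and 0.314 CPM to 41.4, 11.9 and 11.7 CPM (6.02 ± 0.91) and Stc2 from 1.03, 0.478 and 0.472 CPM to 50.7, 28.6 and 31.5 CPM (5.80 ± 0.41). Chac1, which degrades glutathione, rose by 4.995 ± 0.44, and the asparagine synthetase gene Asns by 4.33 ± 0.32, from 11.97, 11.0 and 8.25 CPM to 298, 141 and 188 CPM. Replicate 1 of 72 h was again highest, with a list sum of 9948 CPM against 6689.6 and 7285 CPM in the other 72 h libraries. Without it Nupr1 rose by 5.14, and 27 members rose, with a median of 1.44.

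ATF4 and its partners are known to bind composite elements, searched here as TGATGCAA or TGATGAAA on both strands, and the promoters of 3 genes that hold 1 are printed. Windows and build are as above: chr7:126625471-126625720 on the minus strand, chr2:119350992-119351241 on the plus strand and chr6:7693210-7693459 on the minus strand, with the match in capitals.
Nupr1: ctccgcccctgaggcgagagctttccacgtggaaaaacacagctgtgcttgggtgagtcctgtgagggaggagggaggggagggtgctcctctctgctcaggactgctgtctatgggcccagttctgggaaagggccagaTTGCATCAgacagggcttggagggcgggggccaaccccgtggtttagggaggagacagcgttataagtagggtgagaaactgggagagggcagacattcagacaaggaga
Chac1: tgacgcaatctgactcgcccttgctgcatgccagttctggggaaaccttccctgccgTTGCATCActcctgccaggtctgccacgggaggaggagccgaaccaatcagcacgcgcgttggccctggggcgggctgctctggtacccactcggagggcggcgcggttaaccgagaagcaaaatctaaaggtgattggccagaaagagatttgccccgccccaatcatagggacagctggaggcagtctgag
Asns: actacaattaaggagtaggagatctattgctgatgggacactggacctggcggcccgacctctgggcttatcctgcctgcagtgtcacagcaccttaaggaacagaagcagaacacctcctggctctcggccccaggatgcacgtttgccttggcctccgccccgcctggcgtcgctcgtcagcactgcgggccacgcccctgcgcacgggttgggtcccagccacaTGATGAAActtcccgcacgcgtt
The first letter of the match lay 110, 193 and 23 bases before the start of Nupr1, Chac1 and Asns. Of 34 promoters found for 29 genes of the list, 9 held a match (26.5%), against 1.06% of promoters of all genes tested.

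Of 25 genes of the unfolded protein response 6 rose, a share near the 24.4% of all genes, and 3 fell, against 23.0% (median 0.067). Herpud1, a factor of protein disposal from the endoplasmic reticulum, rose by 1.40 ± 0.23, Xbp1, a transcription factor of the response, by 0.96 ± 0.16, and Edem1 by 0.65 ± 0.074, while Dnajb9, a cochaperone, fell by 1.05 ± 0.29. Hspa5, the main chaperone of that compartment, was at 905, 923 and 849 CPM and 1211, 738 and 687 CPM (adjusted p = 0.949, edgeR), with overlapping times.

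Few genes of the respiratory chain passed the test, and the citrate cycle was mixed. Among 28 citrate cycle genes 4 rose and 8 fell (median -0.20), against 24.4% and 23.0% of all genes. Pcx, pyruvate carboxylase, which feeds pyruvate into the cycle, rose from 2.50, 2.87 and 1.73 CPM to 149, 96.1 and 115 CPM (5.66 ± 0.28, adjusted p = 3.47e-13, edgeR). Idh1 and Me2, enzymes that handle isocitrate and malate, rose by 1.06 ± 0.22 and 0.64 ± 0.18. With RLE scaling or DESeq2 5 rose and 5 fell, and with total counts 4 and 12, so the balance depends on the scaling. The number of falls in this list was 3, 2, 1 and 4 without replicate 1 of 24 h, replicate 2 of 24 h, replicate 1 of 72 h and replicate 2 of 72 h. Of 44 nuclear respiratory chain genes none rose and 2 fell (edgeR), with a median of -0.023. At an unadjusted p under 0.05 1 rose and 5 fell, and DESeq2 called 1 each way. Without replicate 1 of 24 h or replicate 1 of 72 h 1 rose and none fell, and without replicate 2 of 24 h 1 fell. Of 13 mitochondrially encoded genes listed, 6 had no count in any of the 6 libraries, and why was not tested. Of the 7 measured ones 3 rose, led by mt-Co1, a cytochrome oxidase subunit (2588, 2213 and 2858 CPM to 6528, 6496 and 4073 CPM). The calls of both others, mt-Cytb and mt-Nd6, were lost without replicate 2 of 24 h (edgeR adjusted p = 0.153 and 0.157) or of 72 h (0.238 and 0.244). That of mt-Cytb was also lost without replicate 1 of 24 h (0.0823) and that of mt-Nd6 without replicate 3 of 24 h (0.222).

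Fatty acid oxidation had 4 rises and 6 falls among 20 genes (median -0.11), against 24.4% and 23.0% of all genes. Cpt1a, which admits long-chain fatty acids to mitochondria, fell by 0.61 ± 0.14, from 73.0, 84.3 and 100.4 CPM to 44.9, 59.0 and 64.7 CPM. Acadm and Slc25a20, a dehydrogenase and the carnitine carrier, fell by 0.98 ± 0.10 and 0.94 ± 0.10, while Acadl and Eci2, another dehydrogenase and an isomerase, rose by 1.00 ± 0.10 and 1.36 ± 0.11. Fatty acid synthesis had 7 rises and 2 falls among 15 genes (median 0.81), or 1 fall without replicate 3 of 24 h or replicate 2 or 3 of 72 h, and was led by the desaturases. Scd1 was at 2.24, 2.79 and 1.73 CPM and then 277, 272 and 336 CPM (7.03 ± 0.38), Scd2 rose by 3.68 ± 0.20 and Fads2 by 6.09 ± 0.34, and Mid1ip1, an activator of acetyl-CoA carboxylase, by 2.17 ± 0.21. In sterol synthesis 11 of 24 genes rose and 1 fell (median 0.40), a fall not called without replicate 1 of 24 h or replicate 1 or 2 of 72 h. Stard4, a sterol carrier, rose by 1.13 ± 0.13, and the synthesis enzymes Lss, Fdps and Pmvk by 1.10 ± 0.20, 1.07 ± 0.18 and 0.92 ± 0.10. Hmgcs1, at the head of the pathway, was spread at 72 h, at 157, 207 and 283 CPM against 177, 175 and 145 CPM at 24 h, and did not pass (0.38 ± 0.23, adjusted p = 0.19, edgeR).

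Of 26 genes of naive and resting T cells 17 fell, 13 of them at least 2-fold (6.61% of all genes), with a median of -1.05. Of the 2 that rose, neither was called without replicate 1 or 2 of 24 h, and 1 was called without replicate 1 or 3 of 72 h. Ccr7, the chemokine receptor for entry into lymph nodes, was even, at 1135, 1187 and 1123 CPM and then 478, 464 and 421 CPM (-1.34 ± 0.11). Tcf7, the transcription factor of naive and memory cells, fell by 2.33 ± 0.22, Klf3 by 3.03 ± 0.40 and S1pr1, the receptor for exit from lymphoid tissue, by 2.37 ± 0.41. At 24 h the list sum was lowest in replicate 1, 5318 CPM, and highest in replicate 3, 6766 CPM, and at 72 h it was 2296 to 2592 CPM. Bcl2, the survival factor, rose from 209, 264 and 329 CPM to 742, 613 and 663 CPM (1.33 ± 0.21) while its antagonist Bcl2l11 fell by 1.88 ± 0.50 and Mcl1 (added after its values were seen) by 1.00 ± 0.08. Bcl2a1b and Bcl2a1d, close copies that may share reads, fell from 10.8 to 4.60 CPM and from 8.28 to 3.72 CPM on average. In the whole list of 22 death and survival genes 6 rose and 6 fell (median -0.18), against 24.4% and 23.0% of all genes.

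T cell receptor signalling genes had no rise and 13 falls among 30 (edgeR; median -0.25). Ubash3b and Dgka, which restrain the signal, fell by 1.42 ± 0.22 and 1.17 ± 0.19, and Ptprc (CD45) and the kinase gene Zap70 by 0.76 ± 0.09 and 0.65 ± 0.08. The 4 named falls kept their calls when any 1 library was left out, but the number of falls was 7 without replicate 3 of 24 h, 7 without replicate 2 of 72 h. Rises were 4 at an unadjusted p under 0.05, and with RLE scaling or DESeq2 the list had 4 rises and 8 falls. Without replicate 3 of 24 h 3 members rose, and without replicate 1 or 2 of 72 h 1 did. Of 23 genes of the NF-kappaB pathway 10 fell and 3 rose (median -0.18), with falls in Nfkbid (-1.25), Ikbke (-1.11), Rel (-0.84), Ikbkg (-0.72) and, chosen after its value was seen, Nfkb1 (-0.67). Early activation genes went both ways, with 8 rises and 10 falls among 28 (10 and 10 with RLE scaling). Ier3 rose from 1.21, 0.717 and 0.472 CPM to 32.1, 16.1 and 9.81 CPM (4.60, or 4.01 without replicate 1 of 72 h) and Fosl1, an AP-1 subunit, fell by 2.05 ± 0.42. Tnf was at 142, 137 and 108 CPM and 137, 123 and 135 CPM, with overlapping times.

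Of the interleukin 2 axis, the cytokine gene fell and a receptor gene rose. Il2 fell from 32.2, 18.4 and 18.2 CPM to 3.43, 1.64 and 1.65 CPM (-3.33 ± 0.64, adjusted p = 0.000158, edgeR). Il2ra, the high-affinity receptor chain, rose from 1116, 1238 and 1131 CPM to 1869, 1879 and 2169 CPM (0.76 ± 0.20). Stat5a, a transducer of the receptor, fell from 932, 996 and 961 CPM to 234, 260.5 and 283 CPM (-1.89 ± 0.10), and Stat5b, added after its values were seen, by 0.68 ± 0.10. Socs2, a target and inhibitor of this signal, rose by 1.87 ± 0.43, and Bcl6, which STAT5 is known to repress, fell by 2.47 ± 0.48. In all, 4 of 15 members rose and 8 fell (median -0.29).

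Of 14 Th1 genes 9 rose and none fell (edgeR, also at an unadjusted p under 0.05, and DESeq2), or 1 without replicate 1 of 24 h, with a median of 0.97. Ifng went from 10.1, 11.5 and 15.3 CPM to 66.7, 81.0 and 126 CPM (2.89 ± 0.51), Runx3 from 31.5, 35.5 and 44.2 CPM to 287, 336 and 309 CPM (3.07 ± 0.16), and the receptor genes Il12rb2 and Il18rap rose by 2.699 ± 0.18 and 2.09 ± 0.30. Tbx21, which encodes the lineage factor T-bet, did not pass, at 76.7, 78.2 and 62.9 CPM and 65.0, 68.7 and 68.0 CPM (-0.11 ± 0.14, adjusted p = 0.547, edgeR). Among 14 Th2 genes 6 rose and 2 fell (median 0.60), or 1 fell without replicate 1 or 2 of either time, with rises in Il24 (above) and Il10, the anti-inflammatory cytokine (3.71 ± 0.44), and a fall in Maf (-1.62 ± 0.22). Gata3, the lineage factor, rose from 24.98, 30.1 and 38.3 CPM to 45.5, 47.7 and 49.8 CPM (0.61 ± 0.22, adjusted p = 0.025, edgeR). This call was lost without replicate 1 or 2 of 24 h or replicate 3 of 72 h (adjusted p = 0.12, 0.0681 and 0.0624). Il13 overlapped, at 3.88, 8.13 and 11.9 CPM and 8.14, 14.3 and 19.1 CPM.

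Th17 and follicular helper genes fell more than they rose. Of 15 Th17 genes 6 fell and 3 rose (median -0.42), against 23.0% and 24.4% of all genes. The rises were in Ccl20 (3.01 ± 0.50), Ahr (1.02 ± 0.14) and Stat3 (0.41 ± 0.09). The cytokine genes Il17a and Il17f were not called (-0.09 ± 0.68 and -0.21 ± 0.54). These 5 genes were added after their values were seen. Irf4 fell from 1937, 2092 and 1869.6 CPM to 539, 429 and 481 CPM (-2.02 ± 0.14), and both chains of the interleukin 6 receptor, Il6ra and Il6st, by 1.98 ± 0.21 and 1.78 ± 0.27. Of 12 follicular helper genes 9 fell and 1 rose (median -1.06). Besides Pou2af1 and Bcl6, falls were seen in the follicle homing receptor Cxcr5 (-2.37 ± 0.37) and in Slamf6 (-2.27 ± 0.36). The rise was in Ascl2, which went from no count to 16 counts over the group, too few for a level. Cytotoxic genes went the other way, with 7 of 12 higher and 2 lower (median 0.72). Gzmb, which encodes granzyme B, was at 1.89, 1.99 and 2.04 CPM and then 263, 288 and 308 CPM (7.17 ± 0.42, adjusted p = 3.53e-12, edgeR). Gzma was uneven at 72 h, at 2.32, 14.1 and 18.99 CPM, from 9 counts in all at 24 h. Nkg7 rose by 0.96 ± 0.25 and Srgn, the granule proteoglycan, fell by 1.04 ± 0.22.

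Markers of CD8 and natural killer cells moved with these groups. The 10 markers summed to 62.3 to 68.8 CPM at 24 h and 170.1 to 228 CPM at 72 h, and 5 of 6 measured ones rose. Cd8a went from 0.172, 0.319 and 0.393 CPM to 5.11, 14.4 and 16.1 CPM (5.27 ± 0.85), Klrk1 from 0.172, 0.398 and 0.786 CPM to 28.02, 23.5 and 31.0 CPM (5.87 ± 0.47), Klrd1 rose by 4.05 ± 0.39 and Eomes, a factor of cytotoxic cells, by 2.28 ± 0.45. Without replicate 3 of 24 h Klrk1 and Klrd1 rose by 6.52 and 4.66. Cd8b1, the second chain of the CD8 receptor, was at 5.17, 6.93 and 8.25 CPM and 9.50, 8.22 and 6.98 CPM (0.28 ± 0.27, adjusted p = 0.418, edgeR; named after its values were seen), with overlapping times. The natural killer receptor genes Ncr1, Klrb1c, Klra1 and Klre1, all under the filter, did not exceed 1.10 CPM in any of the 6 libraries. Klre1 still stood higher at 72 h without overlap, at means of 0.0528 and 0.697 CPM. Klrb1c and Klra1 had a higher mean at 72 h and Ncr1 a lower one, each with overlapping times. What part other cells had in the rises of Gzmb, Ifng and Runx3 was not tested. The myeloid marker Mpeg1 also rose, by 2.35 ± 0.30.

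Among 10 chemokines 4 rose and 2 fell, or 1 without replicate 3 of 24 h (median 0.96). Ccl3, Ccl1 and Ccl4 rose by 3.23 ± 0.32, 1.56 ± 0.35 and 1.01 ± 0.27, and Xcl1 fell from 193, 153 and 167 CPM to 35.2, 77.4 and 57.2 CPM (-1.60 ± 0.19). Of 14 chemokine receptors 2 rose and 5 fell (median -0.36), with a rise in Cx3cr1 (1.75 ± 0.43). Among 22 integrin and adhesion genes 10 rose and 3 fell (median 0.26). Vim, the intermediate filament vimentin, went from 36.4, 39.9 and 49.1 CPM to 3875, 3031 and 3233 CPM (6.34 ± 0.22, adjusted p = 8.55e-16, edgeR). Cdh1, E-cadherin, rose from 0.689, 2.47 and 1.73 CPM to 28.3, 88.8 and 90.5 CPM (5.38 ± 0.61), with replicate 1 the lowest at 72 h. Itgae, a subunit of an integrin that binds E-cadherin, rose from 5.08, 8.05 and 6.996 CPM to 43.6, 56.2 and 47.2 CPM (2.86 ± 0.25).

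The RFP-positive cells had been sorted away, and Treg-associated genes were read in what remained. Of 28 members 16 rose, 13 of them at least 2-fold, and 5 fell (median 0.75), 14 and 3 without replicate 1 of 72 h. Foxp3 itself did not pass, at 73.3, 64.5 and 57.1 CPM and 49.1, 59.8 and 35.7 CPM (-0.43 ± 0.27, adjusted p = 0.195, edgeR), and its times overlapped. In the Treg of the same medium at 72 h Foxp3 was at 467 ± 105 CPM (SD, n = 3). Ikzf2, which encodes Helios, rose from 11.7, 15.7 and 14.1 CPM to 71.9, 61.3 and 48.5 CPM (2.13 ± 0.22), and its level in Treg was 54.0 CPM. Ctla4, the inhibitory receptor, rose from 62.4, 67.9 and 74.0 CPM to 253, 247 and 209 CPM (1.79 ± 0.17), and Entpd1 (CD39), which degrades extracellular ATP, from 7.24, 8.69 and 7.86 CPM to 79.2, 73.5 and 86.5 CPM (3.33 ± 0.17). Fgl2, a secreted suppressor, rose by 3.59 ± 0.42, or by 4.41 without replicate 3 of 24 h. Gzmb, Il10, Socs2 and Itgae, described above, are also among these 28 genes.

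The TGF-beta list split evenly, with 11 rises and 11 falls among 31 genes (median -0.12). The ligand gene Tgfb3 rose from 5 counts in all to 23.5, 13.2 and 13.3 CPM, and Tgfb1, added after its values were seen, by 0.46 ± 0.089. Lrrc32, which encodes GARP, the surface anchor of latent TGF-beta, rose from 22.3, 24.5 and 16.1 CPM to 72.2, 122 and 116 CPM (2.30 ± 0.59). Smad7, the feedback inhibitor and also a target, fell from 74.7, 96.9 and 138 CPM to 48.4, 58.0 and 57.7 CPM (-0.92 ± 0.22). Of the receptor genes, Tgfbr1 and Tgfbr2 fell by 1.75 ± 0.13 and 0.75 ± 0.16, while Tgfbr3 and Eng were not called. Among other Smad genes, Smad2 and Smad3 fell by 0.68 ± 0.077 and 0.75 ± 0.17, and Smad4 and Smad6 were not called. These receptor and other Smad genes were chosen after their values were seen.

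Of 18 inhibitory receptors 11 fell and 5 rose (median -0.70). Against the rises of Ctla4 and Entpd1 stood falls of Cd160 (-1.77 ± 0.26), Btla (-1.71 ± 0.18) and Cd5, which dampens receptor signals (-1.31 ± 0.10). Costimulatory and TNF family genes had 10 rises and 10 falls among 24 (median -0.25). The ligand genes Tnfsf4 and Tnfsf10 (OX40 ligand and TRAIL) rose by 2.09 ± 0.42 and 1.93 ± 0.23, and Slamf1 and Tnfrsf25 fell by 1.99 ± 0.15 and 1.71 ± 0.14. Thy1 and Cd2, surface molecules of T cells, rose by 1.67 ± 0.26 and 0.98 ± 0.14, and Trbc2, a constant region of the receptor beta chain, fell by 0.93 ± 0.08.

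Interferon-induced genes had 16 falls and 1 rise among 37 (median -0.55), but 6 falls without replicate 1 of 72 h, 7 without replicate 3 of 24 h and 9 without replicate 3 of 72 h. The rises were 2 without replicate 1 of 72 h and 3 without replicate 3 of 24 h. Their sum ran from 3793 to 5643 CPM within 24 h and from 2831 to 3814 CPM within 72 h, so the times overlapped. Gbp2, a guanylate-binding protein, fell by 1.57 ± 0.24 and kept its call in all 6 fits that left out 1 library. Isg20, an exonuclease that is interferon-induced, rose from 3.27, 3.98 and 5.50 CPM to 37.3, 47.3 and 40.2 CPM (3.28 ± 0.23). MHC class I genes had 6 rises among 19 and no fall (edgeR, also at an unadjusted p under 0.05, and DESeq2), or 2 falls without replicate 1 of 24 h, with a median of 0.049. The rises included the 3 subunits of the immunoproteasome, Psmb8, Psmb9 and Psmb10 (1.08 ± 0.26, 0.88 ± 0.22 and 1.23 ± 0.29), and H2-Q4 (0.60 ± 0.17), which shares sequence with its H2-Q neighbours.

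The remaining lists had both rises and falls, with the exception of the Gimap GTPases. Lysosome and proton pump genes had 6 rises and 8 falls among 35 (median -0.069, and 8 each with RLE scaling), against 24.4% and 23.0% of all genes. Atp6v0a1, a pump subunit, was higher (1.10 ± 0.26). Of 8 Gimap GTPases, which act in lymphocyte survival, 5 fell and none rose (edgeR, also at an unadjusted p under 0.05, and DESeq2), with a median of -0.40, while without replicate 3 of 24 h 3 fell and 1 rose. Gimap3, which may share reads with Gimap5, fell by 1.495 ± 0.17 and Gimap6 by 1.39 ± 0.17, while Gimap7 overlapped, at 11.5, 12.4 and 22.8 CPM and 17.4, 15.1 and 18.1 CPM. Of 5 measured Ly6 antigens 3 rose, among them Ly6a (1.10 ± 0.17), and 2 fell, among them Ly6c1, from 29.4, 39.5 and 50.5 CPM to 16.3, 20.5 and 13.0 CPM (-1.26 ± 0.30). Of 15 genes of DNA methylation and its removal 8 rose and 3 fell (median 0.29). Tet1 and Tet2, which oxidise methylcytosine, rose by 2.02 ± 0.20 and 0.81 ± 0.17, and Uhrf1, which maintains methylation at replication, by 1.11 ± 0.21.

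**Figure D3:**
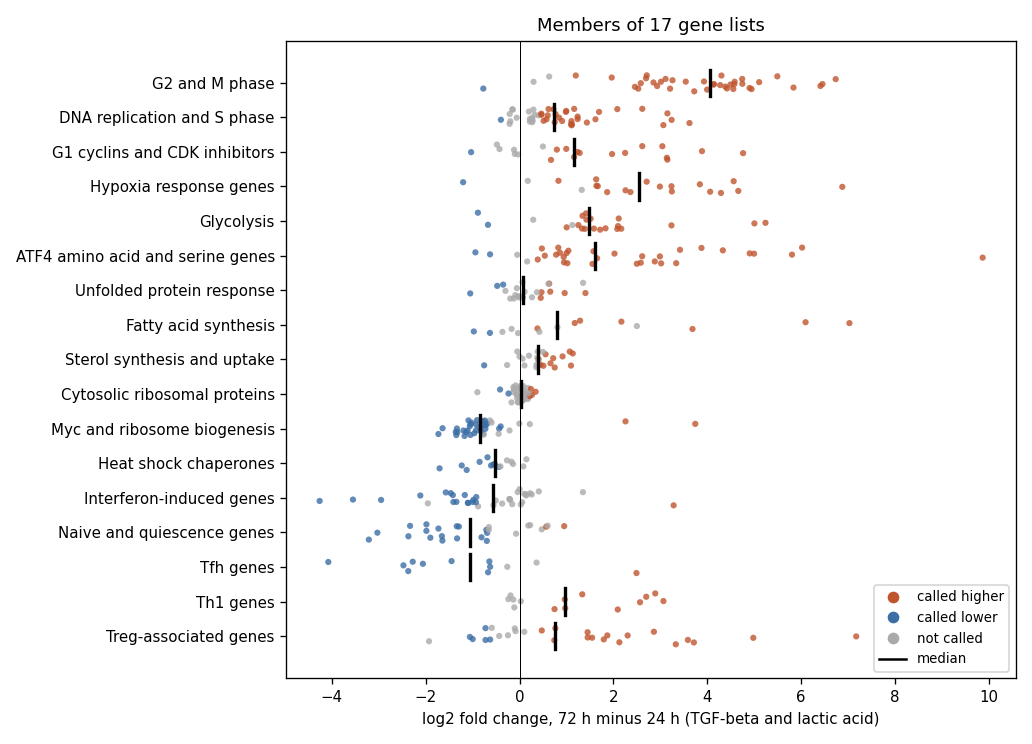
Log2 fold change from 24 to 72 h for each measured member of 17 gene lists. Red points were called higher, blue points called lower and grey points not called, and the black bar is the list median, from 4.06 for G2 and M phase to -1.06 for follicular helper (Tfh) genes. Ascl2, with no count at 24 h, is drawn at its lower bound, and the vertical scatter has no meaning.

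Whether the change over time depended on lactic acid was asked by subtracting the change in TGF-beta alone (T) from that in TGF-beta with lactic acid, in libraries the 2 changes do not share. Only 4 genes passed (edgeR, all with adjusted p = 0.0354), 0.0278% of those tested, and 821 had an unadjusted p under 0.05. Ly6c1, a surface antigen, fell less with the acid: in T it went from 24.4 ± 4.41 to 1.62 ± 0.213 CPM (SD, n = 3 each), and the difference of the 2 log2 changes was 2.64 ± 0.47. Gimap5, which may share reads with Gimap3, fell by 0.26 ± 0.09 against a change of -0.99 ± 0.093 in T (difference 0.73 ± 0.13). Its fall with the acid was not called without replicate 3 of 24 h or replicate 1 of 72 h (adjusted p = 0.0682 and 0.106, edgeR). Lad1, which encodes the filament protein ladinin, fell more. It went from 220.2, 206 and 173 CPM to 57.7, 57.3 and 59.0 CPM, while in T it stood at 283 ± 49.8 and 199 ± 24.4 CPM (SD, n = 3 each; difference -1.28 ± 0.22). Marcksl1, an actin-regulating protein, fell by 1.94 ± 0.19 against a change of -0.45 ± 0.18 in T (difference -1.49 ± 0.26). With 1 of the 12 libraries left out between 0 and 3 genes passed, so no call held throughout, and 0 passed when the 4 groups were fitted alone (edgeR; 811 at an unadjusted p under 0.05). DESeq2 on all libraries called 19. The log2 change of Il2 was -3.33 ± 0.64 with the acid and -1.21 ± 0.51 without it, a difference that did not pass (adjusted p = 0.816, edgeR).

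Whether the change depended on TGF-beta was asked in the same way against lactic acid alone (SLA). Here 2068 genes passed (14.4%), 967 of them with a higher change when TGF-beta was present and 1101 with a lower one, and with RLE scaling 1211 and 841, so the balance of directions depends on the scaling. The smallest p belonged to Epas1, a hypoxia-inducible factor. It fell from 3.45, 4.46 and 6.21 CPM to 2.24, 1.75 and 2.12 CPM with TGF-beta and went from 3.41 ± 0.815 to 68.7 ± 2.45 CPM (SD, n = 3 each) without it, a difference of -5.53 ± 0.32 (adjusted p = 1.92e-10, edgeR). Ltb, the membrane anchor of lymphotoxin, rose from 248, 255 and 289.8 CPM to 480.4, 455 and 442 CPM and in SLA was at 179 and then 68.9 CPM (difference 2.17 ± 0.15). Xcl1 was at 65.1 and then 0.522 CPM in SLA, a larger log2 change than the fall above (5.30 ± 0.38). Fam213a was at 5.55 and 7.08 CPM with TGF-beta and at 5.08 and then 93.0 CPM without it (-3.84 ± 0.28).

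Several genes described above had time changes that differed from those in SLA. Il2 fell with TGF-beta and was at 118 and then 211 CPM in SLA (difference -4.16 ± 0.80, adjusted p = 0.000944, edgeR). Ikzf2 rose by 2.13 ± 0.22 against a change of 0.54 ± 0.23 (difference 1.59 ± 0.32), and Ctla4 by 1.79 ± 0.17 against 2.67 ± 0.18 (-0.87 ± 0.24). Eomes rose with TGF-beta and in SLA was at 124 and then 10.4 CPM (5.83 ± 0.64), and Ifng rose by 2.89 ± 0.51 against 0.50 ± 0.48 (2.39 ± 0.69). Gzmb was at 29.5 and then 670.3 CPM in SLA, a smaller log2 change than its rise above (2.67 ± 0.50). Il13, at 16.1 and then 324 CPM in SLA, differed the other way (-3.54 ± 0.64). Pcx, Isg20 and Bcl2 had a higher change with TGF-beta (3.15 ± 0.39, 3.09 ± 0.33 and 1.21 ± 0.29), and Bcl2 was at 155 and 168 CPM in SLA. Foxp3 had 51 counts at 24 h and 3 at 72 h over the SLA libraries, a ratio of 0.0557 (95% interval 0.0111 to 0.172), so the fitted difference of 3.57 ± 1.04 (adjusted p = 0.0227, edgeR) rests on almost no reads at the later time. Among gene lists, 17 of 25 unfolded protein response genes had a lower change than in SLA and none a higher one (edgeR; 1 at an unadjusted p under 0.05, and 1 with DESeq2), against 14.4% differing of all genes. Its median log2 changes were 0.067 with TGF-beta and 1.14 without. Hspa5 belonged to them, at 1068 and then 2884 CPM in SLA (difference -1.46 ± 0.33). Of 42 ribosomal protein genes 17 had a lower change than in SLA, but 5 with RLE scaling and 8 with total counts. Of 40 G2 and M phase genes 13 had a higher change and 1 a lower one, with medians of 4.06 and 2.99.

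**Figure D4:**
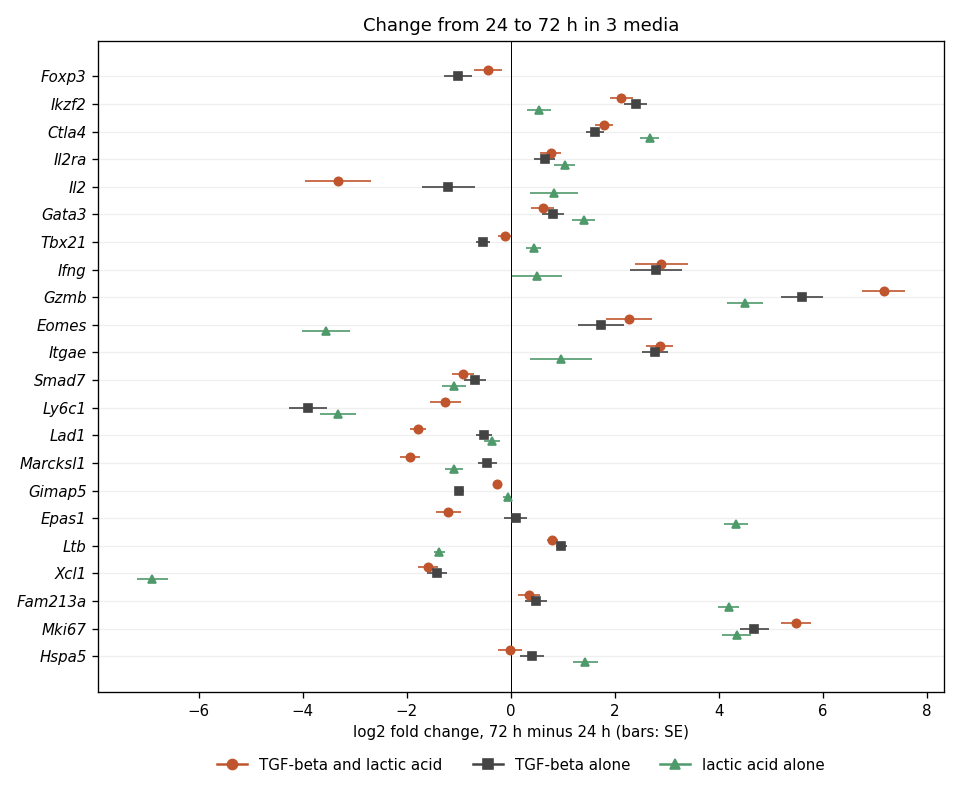
Log2 fold change from 24 to 72 h with its SE for 22 genes in TGF-beta and lactic acid (red circles), TGF-beta alone (dark squares) and lactic acid alone (green triangles). Ly6c1, Lad1, Marcksl1 and Gimap5 are those whose red and dark points differed by the test, and Epas1, Ltb, Xcl1 and Fam213a 4 of the 5 with the smallest p between red and green. A point resting on 3 counts or fewer at 1 time, that of Foxp3 in lactic acid alone, is not drawn.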

How the data were processed

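The authors deposited raw read counts per gene for each library (TruSeq Stranded mRNA, single reads), made per the submitters' processing notes with STAR 2.7.3a and HTSeq 0.12.4 on GRCm39. The annotation release, like the strand setting, is not given in the sources used here. Reads of overlapping genes thus cannot be told apart. HTSeq's summary lines were left out. Of 55414 gene identifiers 52081 matched a symbol in the reference tables. All 29 libraries were fitted in 1 model by group with edgeR 4.0.16 (R 4.3.3), using its filter on low counts (minimum 10), TMM scaling, the quasi-likelihood test and Benjamini-Hochberg adjustment, threshold 0.05. SEs are the fold change over the root of F. The fit was tested on simulated counts. Promoters came from RefSeq (GRCm38.p6).

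Named genes are the 12 largest called rises and falls (no overlap, mean 5 CPM or more), the 4 largest changes per list, the 5 smallest p per difference and a panel of 24. Some of these genes are not reported here. Ascl2, Asns, Cd4, Cd8b1, Eng, Hif1a, Hspa5, Lck, Mcl1, Mcm2, Mcm3, Mcm6, Mycn, Nfkb1, Pttg1, Smad2, Smad3, Smad4, Smad6, Stat5b, Tgfb1, Tgfbr1, Tgfbr2, Tgfbr3, Tnf and the markers of other cells were named after their values were seen. So were Ahr, Ccl20, Cdc45, Cdkn1b, Cdkn1c, Cdkn2b, Cdkn2d, Gins1, Gins2, Gins3, Gins4, Il17a, Il17f and Stat3. Members and lists were chosen with earlier results of these data known. Ratios of summed scaled counts with exact 95% intervals were computed for genes with at most 10 counts at a time. Where there was no count at 24 h, bounds against 3 counts over the group replaced them. Some of these genes are also given with fitted log2 changes.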

Additional observations from a re-analysis of the deposited data

Results flagged for a closer look

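Differences between media in the change from 24 to 72 h were set apart, all by a test of the difference itself (edgeR quasi-likelihood, Benjamini-Hochberg). Against TGF-beta alone 4 genes differed: Ly6c1 (2.64), Gimap5 (0.73), Lad1 (-1.28) and Marcksl1 (-1.49), all as differences of log2 changes, and no call held in every fit that left out 1 library. Against lactic acid alone 2068 differed. Of the 5 with the smallest p, 4 were Epas1 (-5.53), Ltb (2.17), Xcl1 (5.30) and Fam213a (-3.84).

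Among the other genes named here, the difference against lactic acid alone was positive for Cd8a (6.57), Eomes (5.83), Foxp3 (3.57), Pcx (3.15), Isg20 (3.09), Gzmb (2.67), Ifng (2.39), Ly6c1 (2.06), Ikzf2 (1.59), Bcl2 (1.21), Mki67 (1.146), Ccr7 (1.02) and Hk2 (0.72). It was negative for Il2 (-4.16), Il13 (-3.54), Hspa5 (-1.46) and Ctla4 (-0.87). Cd8a had 24 and 10 counts at the 2 times in lactic acid alone, a ratio of 0.394 (95% interval 0.168 to 0.856), and Foxp3 3 counts at 72 h.

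By list, members with a different change against lactic acid alone, against 14.4% of all genes, numbered 17 of 25 in the unfolded protein response, 14 of 40 in G2 and M phase, 9 of 20 in hypoxia and 6 of 14 among Th1 genes. Of 30 T cell receptor signalling genes 6 differed, a share nearer to that of all genes. Of 42 ribosomal protein genes 17 differed, but 5 with RLE scaling and 8 with total counts. Of 34 ATF4 genes 8 differed, but 5 with RLE scaling and 4 with total counts. Of lists not singled out, 14 of 28 Treg-associated genes and 11 of 18 inhibitory receptor genes differed.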

How the results depend on the processing

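Counts of genes that rose and fell stayed within 1.5 times of 3503 and 3308 under every alternative other than the fold threshold, which left 1957 and 950: 3766 and 2941 with DESeq2 1.42.0, 3717 and 2971 with RLE scaling, 3342 and 3620 with total counts, 3654 and 2657 without the filter, 3346 and 2857 with the 6 libraries alone. Leaving out 1 library gave 3050 to 3310 rises and 2711 to 3068 falls. The 4 differences against TGF-beta alone became 19 with DESeq2, 16 without the filter, 0 with the groups alone (edgeR), and 0 to 3 with 1 library left out. Those against lactic acid alone, 2068, ranged from 1512 to 2045 with 1 library left out. Their split, 46.8% higher, was 59.0% with RLE scaling or DESeq2, 60.0% without the filter and 57.1% without replicate 1 of 72 h in lactic acid alone. The cause was not tested.

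The naming rules, with genes added after their values were seen, gave 227 tested genes, of which 206 were called over time. Of these 206, 190 kept their call when any 1 library was left out and 16 lost it at least once, and none changed sign. Some of the 227 are not reported here. Some genes given above, such as Cdc45, Gins3, Tgfbr1, Tgfbr2, Smad2 and Smad3, were not among them. Replicate numbers do not pair the samples as far as the labels say, although replicate 1 was male at both times. Deviations of same-numbered libraries correlated at 0.028, 0.0345 and -0.0624 across genes, and at -0.134, -0.0299 and -0.123 across autosomal genes. With the number as a replicate block 3809 genes rose and 3758 fell, 13 differed against TGF-beta alone and 2811 against lactic acid alone. A block within the 6 libraries alone, chosen after seeing the data, gave 2988 and 2401. Depth limits genes near 0 at 24 h, for which ratio intervals are wide.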
